A study of Mus musculus with 28 samples.

Results

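Neutrophils are the first leukocytes to reach a wound in numbers, and 9 genes that serve their granules and their surface were followed through the healing of mouse skin. They are S100a8, S100a9, Camp, Ltf, Ngp, Retnlg, Ly6g, Csf3r and Trem1, taken by name from a table of 29068 genes. All 9 were detected and all 9 passed the filter on low counts, which 18107 genes passed in all. RNA was sequenced from the skin of C57BL/6J mice (MLKL+/+ in the study's methods, 8 weeks old, both sexes) during natural wound healing after a punch excision to the fascia on the back. Per the study's methods, samples held the whole wound site with scab and epithelial margins, and cells were not sorted. The series gives day 0, its control group, and days 3, 5, 7, 10, 12 and 14, with 4 libraries at each of the 7 time points and 28 in all. The labels give the same genotype and no agent for all groups, and they do not give sex or sampling date. The study's methods begin at day 1, the day of injury per its figure legends, and name no day 0. Whether the day 0 samples were unwounded skin or tissue taken at excision is not given in the sources used here. Each difference from day 0 is therefore a difference from that group, as labelled.

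Neutrophils pack antimicrobial proteins into granules that form one after the other while the cells mature in the bone marrow. Azurophil granules, which hold myeloperoxidase and elastase, are made first, specific granules with lactoferrin and cathelicidin follow, and gelatinase granules come last, so that a mature cell in tissue carries granule proteins whose transcripts it has largely ceased to make. S100A8 and S100A9 form calprotectin, the main protein of the neutrophil cytosol, which binds calcium and withholds zinc and manganese from microbes. In skin, S100A8, S100A9 and cathelicidin can also be made by keratinocytes, and CSF3R and TREM-1 are carried by monocytes as well as by neutrophils.

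Library totals lay between 36706513 and 40655764 counts. The libraries of day 0 differed most from each other, with a biological coefficient of variation of 26.4%, against 5.70% to 10.8% on the later days. Dispersion was estimated per gene from the 28 libraries together, so the wider scatter at day 0 is averaged over all standard errors, which may be too small for comparisons with day 0 and too large for those between later days. The tissue markers Krt5, Krt14, Krt10, Col1a1 and Col1a2 summed to 4227 to 7320.13 FPKM at day 0 and to 2987 to 3606 at day 3. FPKM, fragments scaled to gene length and to the library total, is the scale on which genes are compared here. In these bulk samples, a difference in the number of neutrophils and a difference in RNA per neutrophil cannot be told apart.

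S100a8 and S100a9 lie side by side on chromosome 3 (GRCm38, 90669071-90670034 on the plus strand and 90692630-90695721 on the minus strand), 22595 bases apart. Camp (109847377-109849456, minus strand), Ngp (110419808-110423012, plus strand) and Ltf (111019292-111042766, plus strand) lie on chromosome 9 within a stretch in which Camp and Ltf are 1169835 bases apart. Ly6g is on chromosome 15, Retnlg on chromosome 16, Csf3r on chromosome 4 and Trem1 on chromosome 17. In the GENCODE annotation of this build no other gene overlaps these genes, except 1 processed pseudogene on the strand opposite to Trem1, which has no row in the count table.

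The 250 bases upstream of the start were read for 4 genes from RefSeq's promoter table (GRCm38.p6), the pair that moved together and the granule genes Ngp and Camp, whose courses differed from it. Capitals mark the letters TTNNGNAA or TTNCNNAA, the form of a C/EBP site on either strand, and GAGGAA or TTCCTC, the core bound by PU.1. C/EBP factors and PU.1 direct granule gene expression in myeloid cells. Each sequence runs from 5′ to 3′ on the strand of the gene.
S100a8 (chr3:90668821-90669070, plus strand): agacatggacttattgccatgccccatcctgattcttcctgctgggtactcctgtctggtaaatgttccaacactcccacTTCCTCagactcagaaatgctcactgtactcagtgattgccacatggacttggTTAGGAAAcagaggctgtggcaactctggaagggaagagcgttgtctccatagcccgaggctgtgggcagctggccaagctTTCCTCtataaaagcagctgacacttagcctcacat
S100a9 (chr3:90695722-90695971, minus strand): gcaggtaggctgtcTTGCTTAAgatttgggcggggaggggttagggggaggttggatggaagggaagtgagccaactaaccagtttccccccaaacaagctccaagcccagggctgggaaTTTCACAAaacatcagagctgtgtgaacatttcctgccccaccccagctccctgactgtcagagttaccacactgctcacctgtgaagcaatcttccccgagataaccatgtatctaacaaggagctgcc
Ngp (chr9:110419558-110419807, plus strand): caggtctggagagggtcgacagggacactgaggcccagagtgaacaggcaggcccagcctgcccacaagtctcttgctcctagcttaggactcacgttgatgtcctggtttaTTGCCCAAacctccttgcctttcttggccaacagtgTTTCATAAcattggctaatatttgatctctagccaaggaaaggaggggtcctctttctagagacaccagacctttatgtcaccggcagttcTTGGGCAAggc
Camp (chr9:109849457-109849706, minus strand): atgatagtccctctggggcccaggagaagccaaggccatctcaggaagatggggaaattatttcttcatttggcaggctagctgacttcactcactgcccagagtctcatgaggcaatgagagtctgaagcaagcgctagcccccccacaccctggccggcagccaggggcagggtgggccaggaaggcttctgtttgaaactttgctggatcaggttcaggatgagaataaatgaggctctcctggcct

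The C/EBP letters were found upstream of 7 of the 9 genes, all but Camp and Csf3r, with 3 matches for Ngp, 2 for S100a9 and 1 for S100a8. They occur in 36.8% of all 32851 promoters of this length. The PU.1 letters were found upstream of 5 genes, Csf3r, Ltf, Ly6g, S100a8 and Trem1, against 23.3% of all promoters. Camp held neither in this window. A match describes the letters and is not a measurement of binding.

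Against day 0, all 9 genes were higher at day 3, and 8 were higher at days 5 and 7. A gene was called changed when its log2 fold change passed 1.5 in either direction with an unadjusted P under 0.05 in edgeR's quasi-likelihood test, the limits of the study's methods. At day 3, 9 of the 9 genes were called higher, where 6.5% of all tested genes were, and the median of their log2 fold changes was 6.91 with genes absent at day 0 entered at their lower bound. The median of all tested genes was -0.032. All 9 also had an adjusted p under 0.05 at day 3 (edgeR, Benjamini-Hochberg, 31.8% of all tested genes higher by this rule). The count was 8 at day 5 (5.61% of all tested genes) and 8 at day 7 (4.66%), and the exception on both days was Camp. At day 10 it was 6 (4.33%), with Ly6g among them at 0, 2, 4 and 4 counts against none, for which no fold is given. Retnlg, Csf3r and Camp then had log2 fold changes of 1.48, 1.22 and 1.39, under the limit, although all 9 had an adjusted p under 0.05 (edgeR, Benjamini-Hochberg, 23.5% of all tested genes higher by this rule). The day 10 count was between 6 and 8 when single libraries were left out: Csf3r passed the limit without day 0 replicate 1, Retnlg without day 0 replicate 2 or 3 or day 10 replicate 1 or 4, and Camp without day 0 replicate 3 or day 10 replicate 1. At day 12, Camp was called higher (3.89% of all tested genes) and Retnlg lower (3.51%). At day 14, Camp was called higher (5.15%), and Retnlg, Csf3r and Trem1 were called lower (8.83%). All 4 libraries of a day lay above all 4 of day 0 for 9 of the 9 genes at day 3 (28.2% of all tested genes), 8 at day 5 (23%), 8 at day 7 (19.9%), 7 at day 10 (19.5%) and 1 at day 14 (23.4%). They lay below all 4 of day 0 for 1 gene at day 12 (20.2%) and 2 at day 14 (27.3%). The 6 comparisons share the day 0 libraries.

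**Figure D1:**
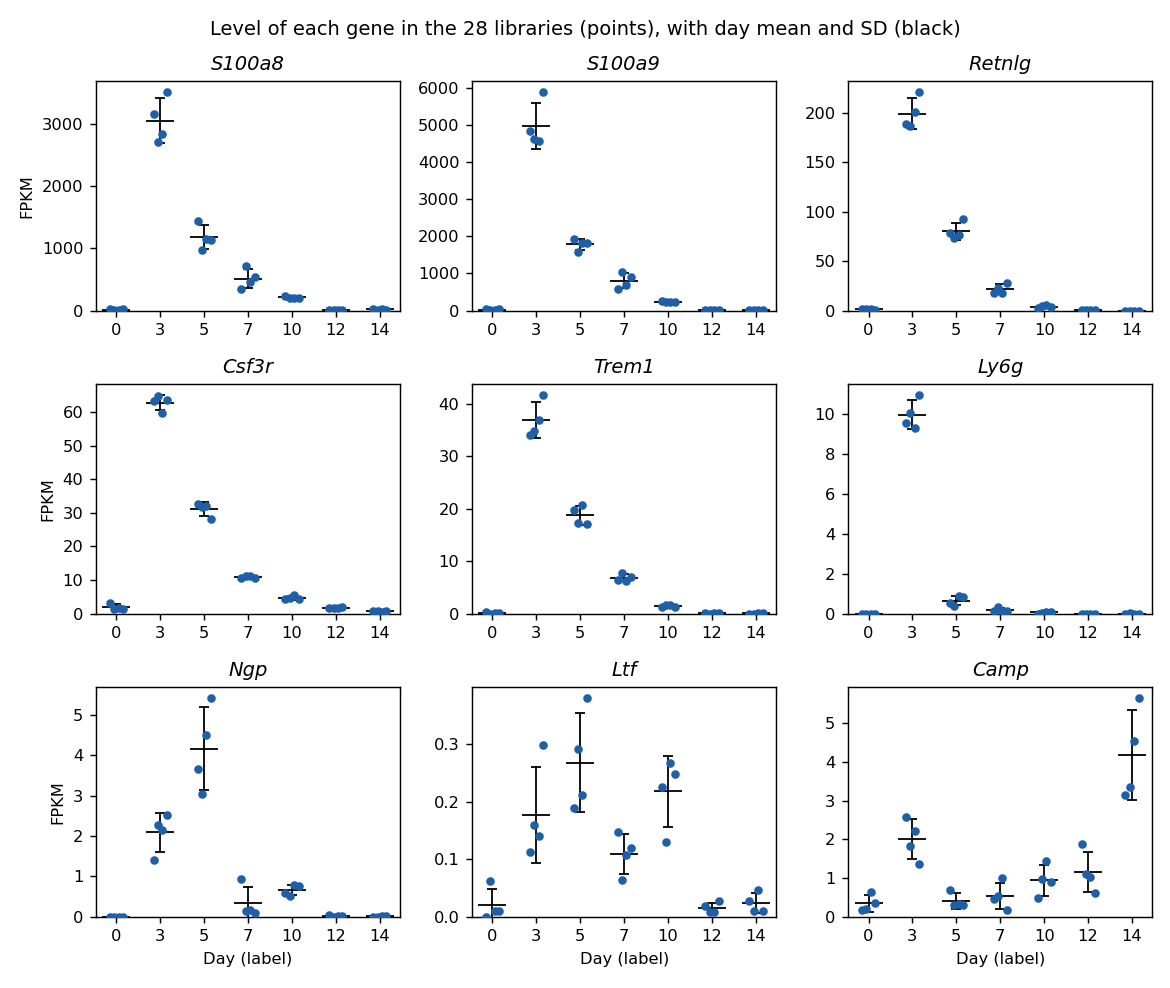
FPKM of the 9 genes (y axes, each on its own linear scale) by day (x axis), with 1 point per library, 4 libraries a day, and the day mean and SD in black. S100a8, S100a9, Retnlg, Csf3r, Trem1 and Ly6g have their highest mean at day 3, Ngp and Ltf at day 5 and Camp at day 14.

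S100a8 and S100a9, the subunits of calprotectin, had the highest levels of the 9 genes on every day. S100a8 had 306, 78, 54 and 339 counts in the 4 libraries of day 0 and 48119, 41346, 43473 and 53686 at day 3. S100a9 had 615, 234, 191 and 728 counts at day 0 and 98745, 94185, 93324 and 120236 at day 3. Replicates 1 and 4 of day 0 were the high ones for both genes, and every library of day 3 was above every library of day 0. In FPKM, S100a8 went from 13.0 ± 10.3 to 3050.45 ± 359 and S100a9 from 22.1 ± 14.1 to 4970.44 ± 619 (SD, n = 4 libraries each). The log2 fold change was 7.94 for S100a8 (SE, standard error, 0.39, adjusted p = 5.2e-16) and 7.88 for S100a9 (SE 0.34, adjusted p = 2.2e-17, edgeR quasi-likelihood, BH for Benjamini-Hochberg), which corresponds to 245-fold and 235-fold.

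From day 3 on, both genes fell at each step to day 12. S100a8 had 15262 to 22776 counts at day 5, 5487 to 11208 at day 7 and 3158 to 3495 at day 10. It then dropped to 156 to 249 counts at day 12 and had 232 to 343 at day 14. The largest step between neighbouring days was that from day 10 to day 12, 17.7-fold for S100a8 and 18.003-fold for S100a9 (log2 fold change -4.14 and -4.17, adjusted p = 1.3e-10 and 5.8e-12, edgeR, BH). At days 12 and 14 both genes lay within the range of day 0, from 12.7 ± 2.49 FPKM for S100a8 at day 12 to 18.2 ± 2.90 at day 14, and from 13.8 ± 2.68 to 12.9 ± 1.15 FPKM for S100a9 (SD, n = 4). In order of level, S100a8 ran from day 3 over days 5, 7 and 10 to days 14, 0 and 12, and day 0 differed beyond the spread neither from day 14 nor from day 12. S100a9 at day 12 was below day 0 by 0.82 on the log2 scale (adjusted p = 0.017, edgeR, BH), but the libraries overlapped (exact two-sided permutation test, p = 0.371).

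Retnlg encodes resistin-like gamma, a small secreted protein of neutrophils and their marrow precursors. Its counts were 30, 52, 39 and 10 at day 0, 4476, 4424, 4781 and 5250 at day 3, and 1934, 1792, 1836 and 2225 at day 5. They were 440, 565, 442 and 675 at day 7, 72, 101, 131 and 78 at day 10, 6, 3, 4 and 7 at day 12, and 0, 1, 1 and 1 at day 14. No day overlapped the next, and the 4 libraries of day 14 held 3 counts together. The log2 fold change against day 0 was 7.23 at day 3 (SE 0.22, adjusted p = 2.1e-20, edgeR, BH), 149.8-fold. Retnlg was the only 1 of the 9 genes for which every neighbouring pair in the order of levels (days 3, 5, 7, 10, 0, 12 and 14) differed with an adjusted p under 0.05 (edgeR, BH). The last of these differences, between days 12 and 14, rests on 20 against 3 counts, a ratio of 6.43 with an exact 95% counting interval from 1.91 to 33.8. Its adjusted p of 0.049 became 0.11 without day 12 replicate 4 and 0.12 without day 14 replicate 1 (edgeR, BH).

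Retnlg was also the gene that fell furthest below its own starting level. At day 12 it was 7.31-fold lower than at day 0 (log2 fold change -2.87, adjusted p = 5.9e-06, edgeR, BH), and at day 14 the ratio of day 0 to day 14 was 43.7 (exact 95% counting interval 14.6 to 215). All 4 libraries of either day were below all 4 of day 0. Retnla, a related gene of the resistin-like family, had 639.9 ± 322 FPKM at day 0, 14.8 ± 2.59 at day 3, 116 ± 1.71 at day 12 and 49.5 ± 3.26 at day 14 (SD, n = 4). Whether reads of Retnla were counted as Retnlg at day 0 was not tested. At day 3, when Retnlg was highest, Retnla was at its lowest mean of the 7 days.

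Csf3r encodes the receptor for granulocyte colony-stimulating factor, which drives neutrophil production and release. It had 576, 247, 328 and 257 counts at day 0 and 11422, 11727, 10795 and 11470 at day 3, with replicate 1 the highest at day 0 and no overlap. In FPKM this was 1.95 ± 0.844 and 62.8 ± 2.28 (SD, n = 4), a 33.4-fold difference (log2 fold change 5.06, SE 0.17, adjusted p = 1.6e-19, edgeR, BH). The level fell at each later step, to 31.2 ± 2.09 at day 5, 11.004 ± 0.312 at day 7, 4.74 ± 0.555 at day 10, 1.80 ± 0.0394 at day 12 and 0.715 ± 0.124 at day 14. Each of these steps had an adjusted p under 0.05 (edgeR, BH), and in the order of levels days 0 and 12 did not differ beyond their spread (adjusted p = 0.19, edgeR, BH).

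Trem1 encodes a surface receptor that amplifies inflammatory signals in neutrophils and monocytes. It had 43, 2, 7 and 24 counts at day 0, 4790, 4889, 5194 and 5861 at day 3, and 2886, 2478, 2966 and 2435 at day 5. Day 0 replicates 1 and 4 held most of the starting counts, and day 3 lay far above all 4. The fold change at day 3 was 280.4 (log2 fold change 8.13, SE 0.31, adjusted p = 1.7e-18, edgeR, BH), and without day 0 replicate 1 it was 8.96 on the log2 scale. Leaving out the same library moved the values of days 5, 7 and 10 from 7.14, 5.65 and 3.40 to 7.93, 6.43 and 4.19. From day 7 (927, 1130, 909 and 1004 counts) Trem1 fell 4.75-fold to day 10 and 27.7-fold from day 10 to day 12 (log2 fold change -4.79, adjusted p = 1.1e-10, edgeR, BH). It had 10, 1, 7 and 15 counts at day 12 and 1, 1, 12 and 11 at day 14. In the order of levels, day 12 differed beyond the spread neither from day 0 (adjusted p = 0.058) nor from day 14 (adjusted p = 0.76, edgeR, BH).

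Ly6g encodes the surface antigen by which mouse neutrophils are usually identified. No library of day 0 held a count of it, which allows up to 3 counts per library, and at day 3 the libraries held 348, 366, 339 and 399. Ly6g was thus at least 120.4-fold higher at day 3. Its level at day 3 was 9.94 ± 0.730 FPKM (SD, n = 4), against 157 ± 20.1 FPKM of the related gene Ly6c1 at day 0, when Ly6g had no reads. At day 5 little was left, with 21, 14, 32 and 31 counts. The libraries then held 5, 12, 5 and 5 counts at day 7 and 0, 2, 4 and 4 at day 10. At days 12 and 14 a single count was seen in the 8 libraries. The step from day 3 to day 5 was 15.2-fold (log2 fold change -3.93, SE 0.30, adjusted p = 2.7e-09, edgeR, BH), and against day 0 Ly6g was at least 7.98-fold higher at day 5 and at least 2.18-fold at day 7. Without day 7 replicate 2, which held 12 counts, the bound of day 7 was 1.62-fold.

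Ngp and Ltf, which encode neutrophilic granule protein and lactoferrin of the specific granules, reached their highest mean at day 5, not at day 3. Ngp had no count at day 0, 64, 103, 98 and 114 counts at day 3, and 172, 141, 208 and 247 at day 5. It was at least 31.4-fold higher than at day 0 at day 3 and at least 62.5-fold at day 5. Day 5 exceeded day 3 in all libraries (exact two-sided permutation test, p = 0.0286, the smallest that 4 libraries against 4 allow), while the fit gave a log2 fold change of 0.98 with an adjusted p of 0.058 (edgeR, BH). At day 7 Ngp had 43, 7, 8 and 4 counts, 12.7-fold below day 5 (log2 fold change -3.67, adjusted p = 4.9e-07, edgeR, BH), and replicate 1 stood above the others. At day 10 it had 27, 23, 36 and 35 counts, and at days 12 and 14 at most 2. The difference between days 10 and 7 was 0.93 on the log2 scale with an adjusted p of 0.13, and 2.21 with an adjusted p of 0.000103 without day 7 replicate 1 (edgeR, BH). Against day 0 the bound at day 7 was 5.05-fold with that library and 2.04-fold without it, and at day 10 Ngp was at least 9.96-fold higher.

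Ltf was the gene with the lowest level of the 9 at days 3, 5 and 7. It had 0, 7, 1 and 1 counts at day 0, 12, 17, 15 and 32 at day 3, and 21, 32, 23 and 41 at day 5. At day 7 it had 16, 7, 12 and 13 counts, at day 10 it had 24, 14, 29 and 27, and at days 12 and 14 between 1 and 5. Replicate 2 held 7 of the 9 counts of day 0. Days 3, 5 and 10 lay above it, while day 7 replicate 2 had the same 7 counts and was above only after scaling to library size. The mean level was 0.269 ± 0.0868 FPKM at day 5, 0.218 ± 0.0615 at day 10 and 0.110 ± 0.0350 at day 7 (SD, n = 4). The log2 fold changes of days 3, 5, 7 and 10 against day 0 were 3.07, 3.65, 2.32 and 3.26 (adjusted p from 2.9e-06 to 0.0022, edgeR, BH), and 4.64, 5.21, 3.89 and 4.82 without day 0 replicate 2. Among days 5, 10, 3 and 7, in order of level, no neighbours differed beyond their spread. Days 5 and 7, the ends of this order, did differ, with day 7 lower in all libraries and an adjusted p under 0.05 (edgeR, BH). From day 10 to day 12 Ltf fell from 94 to 7 counts in the 4 libraries, a ratio of 13.8 (exact 95% counting interval 6.43 to 35.2).

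Camp, which encodes the precursor of the antimicrobial peptide cathelicidin, took another course than the other 8 genes. It had 4, 5, 15 and 8 counts at day 0, 60, 43, 52 and 32 at day 3, and 17, 7, 8 and 7 at day 5. It then had 11, 13, 24 and 4 counts at day 7, 11, 23, 34 and 21 at day 10, 45, 27, 25 and 15 at day 12, and 73, 78, 108 and 130 at day 14. Day 3 did not overlap day 0, day 5 did, and day 14 exceeded all libraries of the other 6 days. Its log2 fold change against day 0 was 2.58 at day 3 (SE 0.45, adjusted p = 1.6e-05) and 3.46 at day 14 (SE 0.45, adjusted p = 1.5e-07, edgeR, BH), which is 5.97-fold and 10.978-fold. Day 14 was 3.62-fold above day 12 (adjusted p = 0.000305, edgeR, BH) and 1.84-fold above day 3 (adjusted p = 0.039, edgeR, BH). The call of day 12 against day 0 (log2 fold change 1.60) fell under the limit of 1.5 without day 0 replicate 1, day 0 replicate 2 or day 12 replicate 1, at 1.40, 1.42 and 1.26.

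Krt17, a keratin of hair follicles and of activated keratinocytes, was also highest at day 14, at 964 ± 53.5 FPKM against 259 ± 31.1 at day 0 (SD, n = 4), with a log2 fold change of 1.77 (SE 0.09, adjusted p = 7.2e-15, edgeR, BH). The other 3 wound edge keratins were lower at day 14 than at day 3, with Krt6a at 75.0 against 360.2 FPKM, Krt6b at 4.43 against 302 and Krt16 at 17.6 against 335. Their day 14 means were not below those of day 0, which were 37.1 ± 30.9, 3.64 ± 4.82 and 15.7 ± 13.7 FPKM (SD, n = 4). At day 14 Camp was thus high while all libraries of Csf3r and Retnlg were below day 0 and Ly6g had 1 count in 4 libraries. The part of keratinocytes in the Camp of day 14 was not tested.

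**Figure D2:**
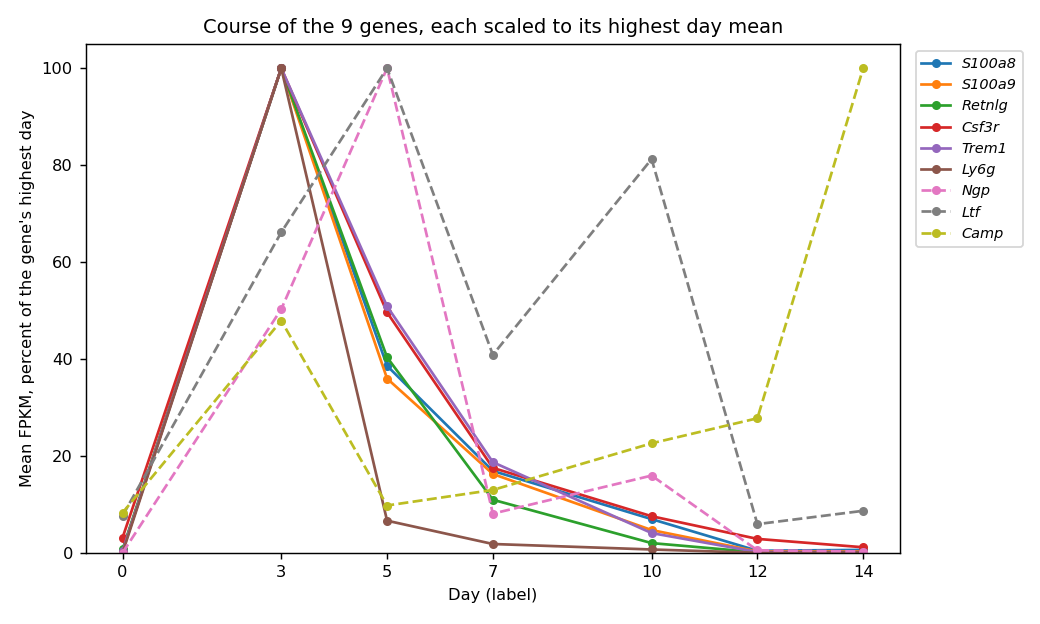
Mean FPKM of each gene on each day (y axis) as a percent of the gene's own highest day mean, by day (x axis, to scale), 4 libraries a day. Solid lines mark the 6 genes that peak at day 3, which fall to between 6.63% (Ly6g) and 50.9% (Trem1) of their peak by day 5, and dashed lines mark Ngp, Ltf and Camp.

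Between neighbouring wound days, the genes that passed the limit of 1.5 differed from step to step. By an adjusted p under 0.05 alone (edgeR, BH), 7, 8, 5, 8 and 2 of the 9 were lower at the 5 steps in order. Of all tested genes, 11.4%, 14.6%, 18%, 20.7% and 25.3% were lower by this rule. Whether the size of a step differed between genes was not tested. From day 3 to day 5, Ly6g and Camp were called lower (2 of 9, where 0.685% of all tested genes were). S100a8, S100a9, Retnlg, Csf3r and Trem1 fell by 1.39, 1.49, 1.33, 1.03 and 0.99 on the log2 scale, each with an adjusted p under 0.05 (edgeR, BH, 7 of the 9 genes and 11.4% of all tested genes lower by this rule) and under the limit of 1.5. Without day 5 replicate 1, S100a8 and S100a9 passed that limit as well, which made 4 genes, and S100a9 did so without any of day 3 replicates 1 to 3 or day 5 replicates 3 and 4. From day 5 to day 7, Ngp, Retnlg, Ly6g and Csf3r were called lower (4 of 9, against 1.16% of all tested genes). Trem1 joined them without day 5 replicate 2 or 4 or day 7 replicate 2 or 4, and Ltf without day 7 replicate 1. From day 7 to day 10 it was Retnlg, Trem1 and S100a9 (3 of 9, against 3.22%), and 5 genes were called changed without day 7 replicate 1, then with Ly6g lower and Ngp higher. Ly6g was also called lower without day 7 replicate 3 or 4 or day 10 replicate 3 or 4. From day 10 to day 12, 7 of the 9 were called lower (2.54% of all tested genes), all but Camp and Csf3r, whose log2 fold changes were 0.20 and -1.49, and Csf3r passed the limit without day 10 replicate 1 or 4 or day 12 replicate 4. Ly6g is 1 of the 7, with 10 counts against 0 in 4 libraries each, for which no fold is given. From day 12 to day 14, Camp was called higher (0.79%) and Retnlg lower (2.78%).

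Of the 3 genes called lower than day 0 at day 14, Retnlg was called with any library left out, and Csf3r and Trem1 were not. Of the 7 macrophage and monocyte markers, 6 were also called lower at day 14 (8.83% of all tested genes), and their part in these values was not tested. Csf3r at day 14 had 129, 121, 108 and 157 counts, below all 4 libraries of day 0, with a log2 fold change of -1.58 (SE 0.18, adjusted p = 1.4e-08, edgeR, BH). Without day 0 replicate 1 it was -1.15 with an adjusted p of 5.7e-10 (edgeR, BH), under the limit of 1.5 but still below. Trem1 at day 14 had a log2 fold change of -1.71 (adjusted p = 0.021, edgeR, BH), with overlapping libraries (exact two-sided permutation test, p = 0.286). It was -0.85 with an adjusted p of 0.28 without day 0 replicate 1. Adjusted p-values lay between 0.067 and 0.073 without day 0 replicate 4, day 14 replicate 1 or day 14 replicate 2 (edgeR, BH). At day 12 Trem1 was at -1.39 and passed the limit without day 0 replicate 2 or 3 or day 12 replicate 1 or 4. With each library left out in turn, this value ran from -1.84 to -0.59.

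Ratios of 2 genes within a library do not depend on the scaling of the library. The FPKM ratio of S100a8 to S100a9 was 0.528 ± 0.138 at day 0, between 0.614 and 0.656 in the mean of days 3, 5 and 7, 0.910 ± 0.0149 at day 10, 0.942 ± 0.202 at day 12 and 1.41 ± 0.187 at day 14 (SD, n = 4). S100a9 was thus the higher of the pair up to day 10 in every library, and S100a8 was the higher in every library of day 14. On the log2 scale the ratio was above day 0 by 0.81 at day 10, 0.83 at day 12 and 1.43 at day 14, with no overlap (exact two-sided permutation test, p = 0.0286 each, 0.051 after Benjamini-Hochberg adjustment over 18 ratio tests). None of the 18 had an adjusted p under 0.05, and an unadjusted value of 0.0286 is the lowest possible here. The 18 include the ratios of Ngp to Csf3r against day 0, which depend on the prior count and are not used below. The adjusted value of 0.051 depends on their inclusion, so it does not decide whether the other ratios differed.

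The FPKM ratio of S100a9 to Csf3r was 12.0 ± 8.88 at day 0, 79.1 ± 9.38 at day 3, 57.6 ± 6.26 at day 5, 73.3 ± 18.5 at day 7 and 49.7 ± 6.69 at day 10, and it was 7.65 ± 1.47 at day 12 and 18.5 ± 3.88 at day 14 (SD, n = 4). S100a9 thus rose more than Csf3r at days 3 to 10, by 2.29 to 2.97 on the log2 scale (exact two-sided permutation test, p = 0.0286 each, 0.051 after adjustment over the 18 tests). The FPKM ratio of Ngp to Csf3r was 0.0333 ± 0.00757 at day 3, 0.135 ± 0.0423 at day 5, 0.0310 ± 0.0377 at day 7 and 0.140 ± 0.0269 at day 10 (SD, n = 4). At day 7 it ran from 0.00807 to 0.0874, highest in replicate 1, so that mean leans on 1 library. The differences of this ratio from day 0, where Ngp had no counts, depend on the prior count and are not used.

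**Figure D3:**
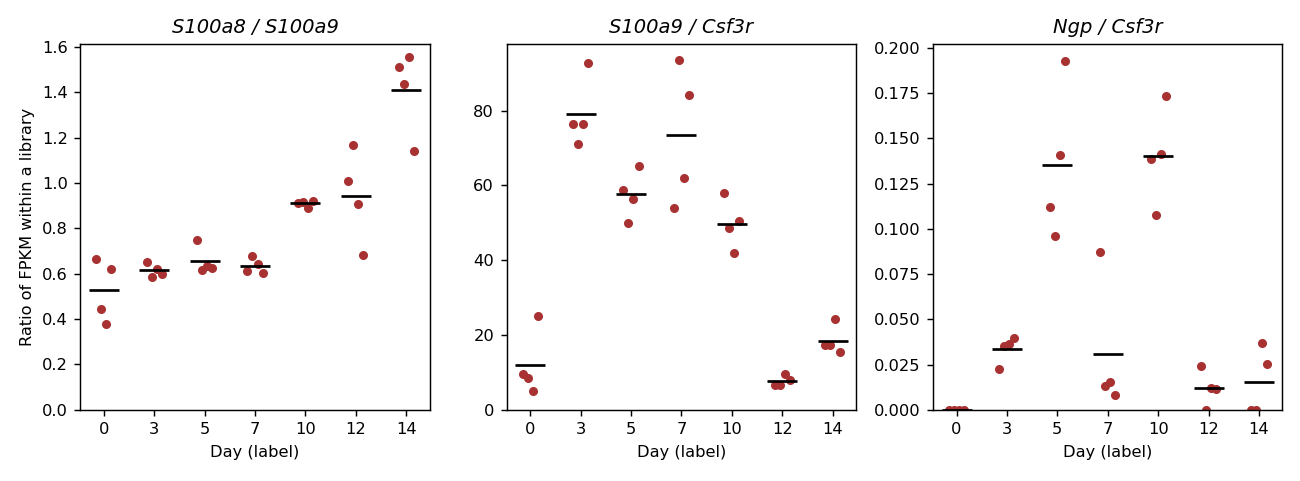
Ratio of FPKM within a library (y axes, linear) for S100a8 to S100a9, S100a9 to Csf3r and Ngp to Csf3r by day (x axis), with 1 point per library, 4 libraries a day, and the day mean as a black bar. S100a8 to S100a9 is between 1.14 and 1.55 at day 14 and at most 0.920 in all libraries up to day 10, and Ngp to Csf3r is higher at days 5 and 10 than at day 3.

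Ratios between wound days were also compared for 4 pairs, chosen after their values were seen. From day 3 to day 5, the ratio of Ngp to Csf3r was higher by 1.99 on the log2 scale, with FPKM ratios of 0.0962 to 0.193 at day 5 and 0.0224 to 0.0397 at day 3. For Ly6g to Csf3r the difference of day 5 minus day 3 was -2.87. From day 3 to day 14, the ratio of Camp to Csf3r was higher by 7.48 and that of S100a8 to S100a9 by 1.19. The libraries did not overlap in any of the 4, and because the pairs were chosen for these values, they are a description without a test.

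Other genes of the neutrophil program were read from lists. Of 7 further genes of specific and gelatinase granules, all 7 were called higher at day 3 (6.5% of all tested genes), from Lcn2, lipocalin 2, at a log2 fold change of 6.71 (SE 0.16, adjusted p = 7.9e-23, edgeR, BH) to Mmp9, gelatinase B, at 1.81 (SE 0.25). Lcn2 had 961 ± 12.4 FPKM at day 3, 551 ± 58.7 at day 5 and 38.5 ± 2.81 at day 7 (SD, n = 4). Chil3, a chitinase-like protein of neutrophils and macrophages, was higher at day 5 (107 ± 6.03 FPKM) than at day 3 (45.9 ± 1.32), by 1.21 on the log2 scale (adjusted p = 0.0011, edgeR, BH). At day 14, 0 of the 7 were called higher (5.15% of all tested genes) and 2 lower (8.83%). Of 5 azurophil granule genes, none was called higher at day 3 (0 also with an adjusted p or an unadjusted P under 0.05, edgeR) and 2 were called lower (12.4% of all tested genes). Elane, neutrophil elastase, had a log2 fold change of -2.62 (SE 0.51, adjusted p = 6.2e-05, edgeR, BH), with 66 counts at day 0 and 10 at day 3 in 4 libraries each. Mpo, myeloperoxidase, had 0.34 (SE 0.58, adjusted p = 0.63, edgeR, BH), with 24 counts at day 0 and 29 at day 3 in 4 libraries each. Prtn3, the gene of this list with the most counts, had 863 at day 0 and 910 at day 3. At day 10 Mpo had 98 counts and was the 1 azurophil gene called higher (4.33% of all tested genes), at 1.96 (SE 0.52, adjusted p = 0.0026, edgeR, BH).

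Of 9 further surface receptors, 8 were called higher at day 3 (6.5% of all tested genes). Cxcr2, the receptor for the chemokines that attract neutrophils, had a log2 fold change of 7.73 (SE 0.16, adjusted p = 2.0e-23, edgeR, BH). Cxcr1, which had no count at day 0, was at least 64.5-fold higher. Il1r2, a decoy receptor for interleukin-1, was the exception at 0.40 (SE 0.19, adjusted p = 0.065, edgeR, BH). At day 14, 6 of these 9 were called lower than at day 0 (8.83% of all tested genes) and 1 higher (5.15%), Cxcr1, with 10 counts against 0 in 4 libraries each. Of these 10 counts, 7 came from 1 library. The ligands and growth factor that act on these receptors were all 6 called higher at days 3, 5, 7 and 10, where 6.5%, 5.61%, 4.66% and 4.33% of all tested genes were, and 0 were at days 12 and 14 (3.89% and 5.15%). At day 3 they ran from Cxcl5 at 9.05 (SE 0.30) down to Ppbp at 6.05 (SE 0.26). Cxcl2 had 264 ± 42.6 FPKM at day 3 and 326 ± 40.4 at day 5, a difference within the spread (adjusted p = 0.61, edgeR, BH).

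Of 6 genes of the NADPH oxidase, which makes the superoxide of the respiratory burst and is shared by neutrophils and macrophages, 4 were called higher at day 3 (6.5% of all tested genes), with Ncf4 highest at 2.498 and Cybb lowest at 0.83. All 6 had an adjusted p under 0.05 (edgeR, BH, 31.8% of all tested genes higher by this rule). Of 5 transcription factors of granulocytes, Cebpb and Spi1, which encodes PU.1, were called higher at day 3, at 1.73 each, and Gfi1 had -0.77 (adjusted p = 0.058, edgeR, BH). Cebpe, which governs specific granule genes during maturation, had 59 counts at day 0 and 114 at day 3 in 4 libraries each, with a log2 fold change of 1.012 (adjusted p = 0.043, edgeR, BH).

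**Figure D4:**
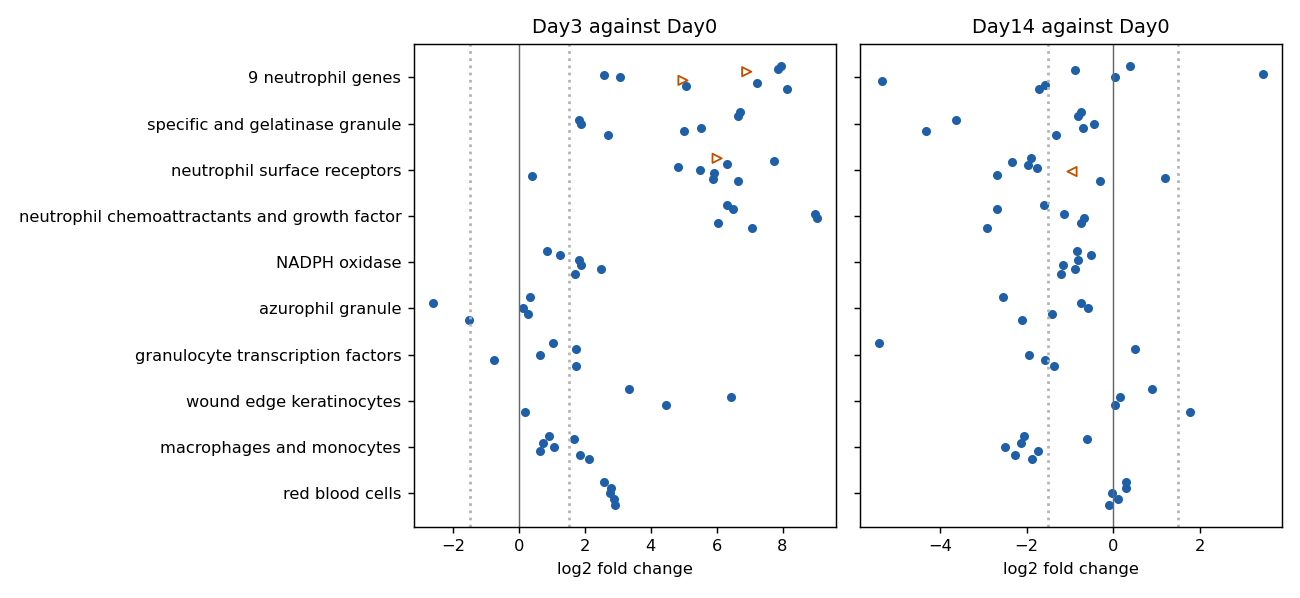
Fold changes against day 0 (x axis, log2) at day 3 and day 14 for the genes of each list (y axis), 1 point per gene from edgeR with 4 libraries a day. Open triangles are bounds for genes without counts on 1 of the days, genes at or under 3 counts on both are left out, and dotted lines mark 1.5 in either direction. At day 3 the azurophil granule genes lie at or below 0.34 and the 9 neutrophil genes at or above 2.58.

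Of the marker lists of other cells, those of wound edge keratinocytes, macrophages, red blood cells and T and B cells held genes called higher at day 3, where 6.5% of all tested genes were. The wound edge keratins Krt6a, Krt6b, Krt16 and Krt17 summed to 273 to 402 FPKM at day 0, 1198 to 1487 at day 3 and 1004 to 1144 at day 14, and 3 of the 4, all but Krt17, were called higher at day 3. Most of the sum at day 14 was Krt17. Krt6b went from 3.64 ± 4.82 FPKM at day 0 to 302 ± 24.7 at day 3 and from 151 ± 16.6 at day 10 to 13.7 ± 2.37 at day 12 (SD, n = 4). The 7 markers of macrophages and monocytes summed to 454 to 609 FPKM at day 0, 1004 to 1055 at day 3 and 171 to 197 at day 14, and 3 of the 7 were called higher at day 3, with Ccr2 highest at a log2 fold change of 2.12. The 5 red blood cell genes summed to 245 to 370 FPKM at day 0 and 1890 to 2316 at day 3, and all 5 were called higher, from Hba-a1, an alpha globin gene, at 2.56 to Alas2 at 2.91. Of 5 T and B cell markers 1 was called higher at day 3, Ms4a1, at 1.67 (adjusted p = 0.052, edgeR, BH). The T cell genes Cd3e and Cd3g fell by 1.14 and 1.27 on the log2 scale (adjusted p = 6.5e-06 and 2.1e-09, edgeR, BH), to 1.67 and 7.16 FPKM from 3.82 and 17.9. The part of keratinocytes, monocytes and blood in the course of the 9 genes was not tested.

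The genes whose levels were most like the 9 over the 28 libraries were found by Pearson's r with the mean of their standardised log2 levels, among 14677 genes with a mean CPM (library-scaled count) of at least 1. Abi3 (r = 0.987), Picalm (0.982), Ctsb (0.982), Cd300lf, Timp1, Tes and Casp8 (0.978 each), and Cxcl5 and Plod3 (0.977 each) were 9 of the first 10. These 9 moved less than the 9 genes in most cases, with log2 fold changes at day 3 from 1.19 for Plod3 to 9.05 for Cxcl5. By single gene the nearest was Sprr2e for S100a8 (0.987), Mrgpra2b for S100a9 (0.990), Pla2g15 for Retnlg (0.989), Ccr1 for Csf3r (0.996) and Tes for Trem1 (0.979). It was Smox for Ly6g (0.970), Nos2 for Ngp (0.963), Tie1 for Ltf (0.925) and Kat2a for Camp (0.840). The values describe 28 libraries that share 7 time points, and the low counts of Ltf and Camp limit theirs.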

How the data were processed

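Poly(A) status and strand of the libraries were not stated in the sources used here; RNA was extracted with TRIzol and libraries were built with the VAHTS Universal V6 kit. The submitters' processing notes name fastp, R 3.2.0 and the build mm10, and the aligner and counter are not given in the sources used here. The authors deposited raw counts per gene, and FPKM values deposited by the authors are those counts divided by gene length and library total. Library totals of 36706513 to 40655764 counts set the depth, and intervals and floors (3 counts per library) cover counting error only.

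Counts of all 28 libraries were fitted with edgeR 4.0.16 in R 4.3.3 (TMM scaling, filterByExpr, quasi-likelihood test, 1 coefficient per day), and p-values were adjusted over 18107 genes by Benjamini-Hochberg. A call needed a log2 fold change beyond 1.5, up or down, with unadjusted P under 0.05. Single genes and ratios were also tested by exact two-sided permutation of log2 CPM (library-scaled counts, prior count 2, scipy 1.17.1), with a smallest p of 0.0286. A gene without counts on 1 day was given a bound at the floor. Named genes are the 9 genes, the list genes with the highest and lowest fold change at day 3 or set beside one of the 9, and the nearest genes by Pearson's r, of which 1 is not reported here. Mpo, Prtn3, Chil3, Cxcl2, Cxcr1, Cebpe, Gfi1, Ms4a1, Krt17, Retnla and Ly6c1 were named after their values were seen where they fall outside this rule. Alternatives were DESeq2 1.42.0, DESeq2 size factors, other filters and limits, the 8 libraries of a comparison alone, a replicate block, another prior count (0.5) and each library left out. The 9 genes and all lists were chosen with earlier results of these data known. The labels do not say whether the libraries of a day came from separate animals, so p-values measure the spread between these samples, which may be technical. The design text speaks of 5 repeats, and 4 libraries a day were analysed here.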

Additional observations from a re-analysis of the deposited data

Results flagged for a closer look

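3 of 55 groups of 4 libraries held a library far from the other 3, where chance gives about 1 in 20, or 2.75. S100a9 in day 3 replicate 4 was at 11.70 log2 CPM (120236 counts against 93324 to 98745 in the others). Ly6g in day 7 replicate 2 was at -1.48 (12 counts against 5 in each of the others). Camp in day 5 replicate 1 was at -1.01 (17 counts against 7 to 8).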

How the results depend on the processing

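With at least 10 counts required in every library, only S100a8, S100a9 and Csf3r were tested, and the number of genes called higher than day 0 was 3 on days 3, 5 and 7, 2 on day 10 and 0 on days 12 and 14, with 0, 1, 1, 2 and 0 called changed at the steps between neighbouring days. edgeR on the 8 libraries of a comparison alone tested 6 of the genes on day 7 and called 5 higher, and it tested 4 from day 12 to day 14 and called 1 changed. DESeq2 gave 3 changed genes from day 3 to day 5 and 5 from day 5 to day 7. With a limit of 1 on the log2 scale, 9 genes were called on day 10. With each library left out in turn, the number called higher than day 0 was 9 to 9, 8 to 8, 8 to 8, 6 to 8, 0 to 1 and 1 to 1 on days 3, 5, 7, 10, 12 and 14, and the number called changed between neighbouring days was 2 to 4, 4 to 5, 3 to 5, 7 to 8 and 1 to 2. Log2 fold changes against day 0 that turned sign in this way were S100a8 on day 12 (-0.47 to 0.30), Camp on day 5 (-0.11 to 0.76), Ltf on day 14 (-0.52 to 1.64) and Csf3r on day 12 (-0.41 to 0.099), none of them called. With a prior count of 0.5, the log2 ratio of Ngp to Csf3r was above day 0 by 2.5006 on day 3 and 1.84 on day 7. Day 0 has no Ngp counts, so this value follows the prior. The replicate block left the counts at 9, 8, 8, 6, 1 and 1 against day 0 and at 2, 4, 3, 7 and 2 between neighbouring days, as without it. Over 84 pairs of libraries with the same number, deviations from the day means correlated between -0.076 and 0.177. The labels do not say what the number stands for, and whether libraries with the same number share an origin was not tested.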
